A study of Homo sapiens with 6 samples.

Results

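Interferon-stimulated genes are the genes that a cell switches on when it receives an interferon, and they encode most of the proteins with which it resists viruses. The 36 genes described here were chosen by name, as a list of well known members of this group, and every one of the 36 symbols matched 1 of the 62703 rows of the deposited tables. Type I interferons bind a receptor made of IFNAR1 and IFNAR2, whose kinases JAK1 and TYK2 phosphorylate STAT proteins. Among these, STAT2 joins IRF9 in the complex ISGF3, which binds a promoter sequence called the interferon-stimulated response element, and low levels of the same proteins keep many of these genes on at a basal level without added interferon.

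The cells were NCI-H929 (H929 in the labels, genotype WT), an established human multiple myeloma line. For 24 h they received either Mi-2 at 1 µM, a compound that blocks the protease MALT1, or the solvent DMSO, with 3 RNA-seq libraries in each group. Neither group is labelled as having received interferon, a virus or a nucleic acid, and the cells of 1 line stand for no other myeloma. All 6 titles carry the same ending, bio rep 1, and separate cultures are not described, so the p-values rest on a spread between samples that may be no more than technical. Total estimated counts ran from 19980700 to 23756700 per library. All 9 plasma cell markers examined had a mean of at least 1 TPM (a share of all transcripts, corrected for gene length). They summed to 9485 to 13219 TPM with DMSO and 10333 to 13455 TPM with Mi-2, with JCHAIN alone at 5294 to 7519 TPM. SDC1 and CD38 fell with Mi-2 (edgeR adjusted p = 0.018 and 0.0296). MZB1 and IRF4 rose (edgeR adjusted p = 0.00576 and 0.0441), and the other plasma cell markers were not called. With any single library left out, MZB1 kept its call (edgeR adjusted p up to 0.0336). SDC1, CD38 and IRF4 each lost theirs in at least 1 such fit (up to 0.0692, 0.105 and 0.165). IRF4 kept its call only without DMSO library 1. Markers of other cells reached a mean of 1 TPM in 1 of 5 for mature B cells (BANK1), 1 of 7 for T and NK cells (CD3E), 0 of 7 for myeloid cells, 1 of 5 for plasmacytoid dendritic cells (TCF4) and 2 of 7 for fibroblasts, endothelium and epithelium (PECAM1 and KRT18). The summed TPM of the T and NK cell list was 29.3 to 34.2 with DMSO and 42.5 to 47.7 with Mi-2, while CD3D had 0 counts. That of the last list was 67.1 to 83.7 and 82.9 to 119.9 TPM, while COL1A2 had 0 counts. CD3E, PECAM1 and KRT18 each rose with Mi-2 (edgeR adjusted p = 0.018, 0.0488 and 0.00853). With any single library left out, KRT18 kept its call (edgeR adjusted p up to 0.0376). CD3E lost its call without DMSO library 2 (0.0783), and PECAM1 lost its call in every such fit (0.0506 to 0.177). The plasmacytoid dendritic cell list, for a specialised source of interferon, summed to 6.82 to 17.7 and 5.37 to 6.83 TPM, nearly all of it TCF4, with CLEC4C and LILRA4 at 0 counts in all 6 libraries, which allows up to 3 counts in each. The part of these markers in the results was not tested.

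After their levels were seen to move together between libraries (described further on), the members' promoters were searched for the response element. The members were chosen by name as known interferon-stimulated genes, so a high share with the element could be anticipated from the choice alone. Whether the element has a part in that pattern was not tested. The RefSeq promoter table (GRCh38.p14, 250 bases before to 50 bases after each annotated start) held 39 promoters for 29 of the 36 genes. The letters GAAANNGAAA on either strand, a short form of the element, were found in 24 of the 39 (61.5%) against 3.57% of all 35116 promoters of the same length, and in at least 1 promoter of 20 of the 29 genes. The shorter interferon-gamma type motif TTCNNNGAA, which was searched separately and may overlap the first, was found in 8 of the 39 (20.5%) against 7.66% of all promoters. A match describes letters and was not measured as a binding site, and a promoter without a match says only that these letters are not in that window. Stretches from 6 members are shown 5′ to 3′ on the gene's own strand, with every match in capitals. They were chosen so that none overlaps an annotated exon in GENCODE release 29, and they run from members that differed strongly between libraries (IFIT1, IFI6, ISG15) to members that differed less (SAMD9, IFI27).
IFIT1: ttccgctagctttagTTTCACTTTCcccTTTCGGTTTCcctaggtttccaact
IFI6: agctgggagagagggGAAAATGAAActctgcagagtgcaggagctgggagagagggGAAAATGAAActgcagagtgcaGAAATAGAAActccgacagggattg
ISG15: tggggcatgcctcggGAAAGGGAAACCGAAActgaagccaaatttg
HERC5: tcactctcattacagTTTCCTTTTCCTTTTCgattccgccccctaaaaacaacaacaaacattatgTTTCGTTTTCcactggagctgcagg
SAMD9: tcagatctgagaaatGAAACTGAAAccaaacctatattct
IFI27: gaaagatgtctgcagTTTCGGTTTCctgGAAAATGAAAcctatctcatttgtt
These stretches lie at chr10:89392492-89392544 (plus strand), chr1:27672261-27672363 (minus strand), chr1:1013369-1013414 (plus strand), chr4:88456979-88457069 (plus strand), chr7:93118091-93118130 (minus strand) and chr14:94110613-94110665 (plus strand). The matches in IFIT1 begin 116 and 103 bases before the annotated start, and those in ISG15 overlap one another. By GENCODE release 29 the IFIT1 stretch lies within the span of LIPA, that of IFI6 within the span of AL445490.1 and those of ISG15 and IFI27 within the span of their own gene, outside exons, while those of HERC5 and SAMD9 lie in no annotated gene.

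The H929 cells, which are not labelled as having received interferon, expressed most of these genes, some of them strongly. HERC6 and CMPK2 had a mean of under 1 TPM each. In none of the 36 did the change with Mi-2 pass edgeR's test between the 2 groups, in a fit that did not pair libraries by number. Fits that did so, or that kept every low-count gene, called some members and are described further on. All 36 passed the filter on low counts, and 0 were called higher or lower with Mi-2 by edgeR's quasi-likelihood test (adjusted p under 0.05 over all 16082 genes tested), where 11.0% of all tested genes were called, 5.02% higher and 6.03% lower. At an unadjusted p under 0.05, 3 members were higher (IFI27, STAT2 and ISG20) and 0 lower, against 27.0% of all tested genes in either direction. That count of 3 higher moved with the libraries. It was 0 on leaving out DMSO library 3, Mi-2 library 1 (each with 1 member lower) or Mi-2 library 2, and 8 on leaving out DMSO library 2 or Mi-2 library 3. With both libraries numbered 3 left out, 11 members were higher and 1 lower. The lowest adjusted p of any member was 0.114, for IFI27. The ranges of the 2 groups in CPM (counts relative to library size, scaled by TMM) overlapped for every member, while they were separate for 32.3% of all tested genes, 15.7% with Mi-2 higher and 16.6% lower. In bulk RNA, fewer cells with a transcript and less of it per cell cannot be told apart.

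Most of the fitted changes were small and positive, with wide intervals. The log2 fold change of Mi-2 over DMSO was above 0 in 31 of the 36 members and below 0 in 5, with a median of 0.20, where all tested genes had a median of 0.0050 and 50.7% above 0. The members share libraries and vary together, so their signs are not separate observations. The median was -0.058 when DMSO library 3 was left out and 0.029 when Mi-2 library 1 was. Leaving out DMSO library 2 gave 0.44 and Mi-2 library 3 gave 0.46, with 0.30 for DMSO library 1 and 0.13 for Mi-2 library 2. With both libraries numbered 3 left out it was 0.21, and 0 members were called. The 95% interval of the change stayed within 2-fold in either direction for 22 of the 36 members and within 1.5-fold for IRF9 and BST2 alone, so changes of 2-fold are outside the interval for those 22 and not for the other 14. DESeq2 called 1 member (STAT2), and limma on log2(TPM + 1) called 0 of the 34 it tested. With every low-count gene kept in the fit edgeR gave 12 members higher and 1 lower. That last fit called 1221 of all its 31459 genes higher and 1541 lower.

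**Figure D1:**
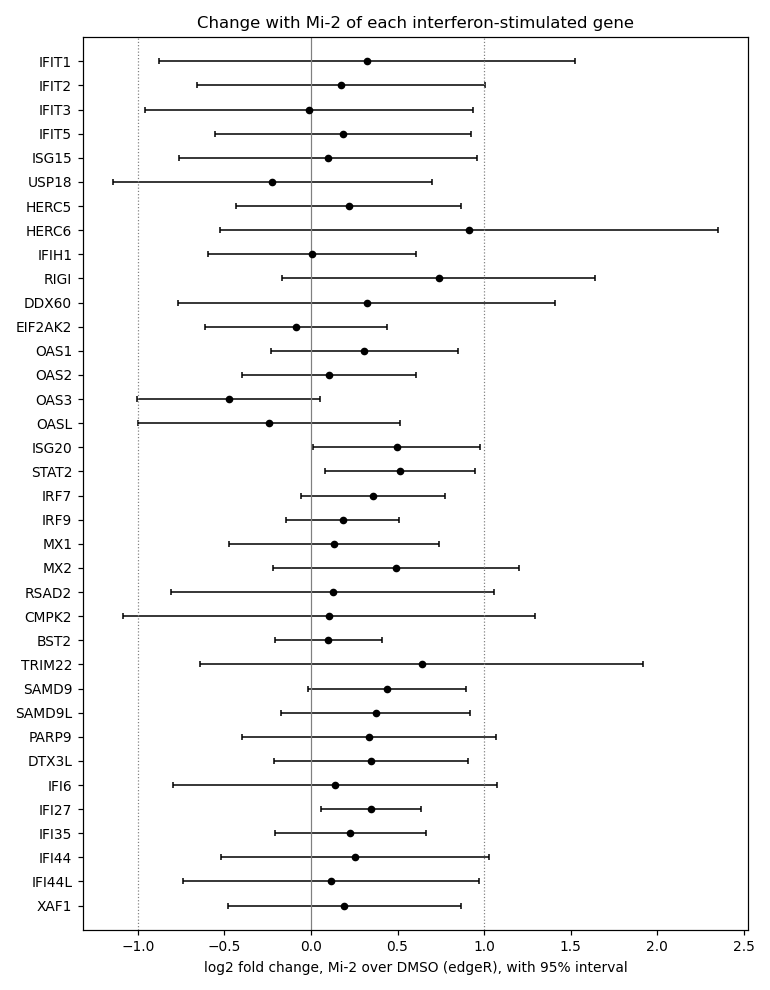
The log2 fold change of Mi-2 over DMSO (x axis) for each of the 36 genes (y axis), as points with 95% intervals from edgeR, and dotted lines at 2-fold. In 33 genes the interval spans 0, and the intervals of ISG20, STAT2 and IFI27 lie above it.

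In the members' mean log2 CPM, library 3 of each group lay further below its group mates than the 2 group means lay apart (0.24). DMSO library 3 had the lowest CPM of the DMSO libraries in 36 of 36 members, and Mi-2 library 3 the lowest of the Mi-2 libraries in 35 of 36, the exception being HERC6, which was lowest in Mi-2 library 2. Over all tested genes those shares were 33.4% and 33.0%, and 15.2% of genes were lowest in both of these libraries. The mean log2 CPM of the members was 6.11, 6.39 and 5.23 in DMSO libraries 1, 2 and 3 and 6.53, 6.40 and 5.51 in Mi-2 libraries 1, 2 and 3. Expressed as a sum, the members took 5532, 6475 and 3123 TPM in the DMSO libraries and 6747, 6350 and 3694 TPM in the Mi-2 libraries, so the low library of each group stood well below the other two, and the low Mi-2 library was a little above the low DMSO library. These 2 libraries were not the shallowest, at 21788300 and 23756700 counts where the 6 libraries began at 19980700. The share of mitochondrially encoded transcripts was 4.98% in DMSO library 3 against 4.77% and 4.47% in the other DMSO libraries, and 5.29% in Mi-2 library 3 against 5.20% and 5.34%. What set these libraries apart was not tested.

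**Figure D2:**
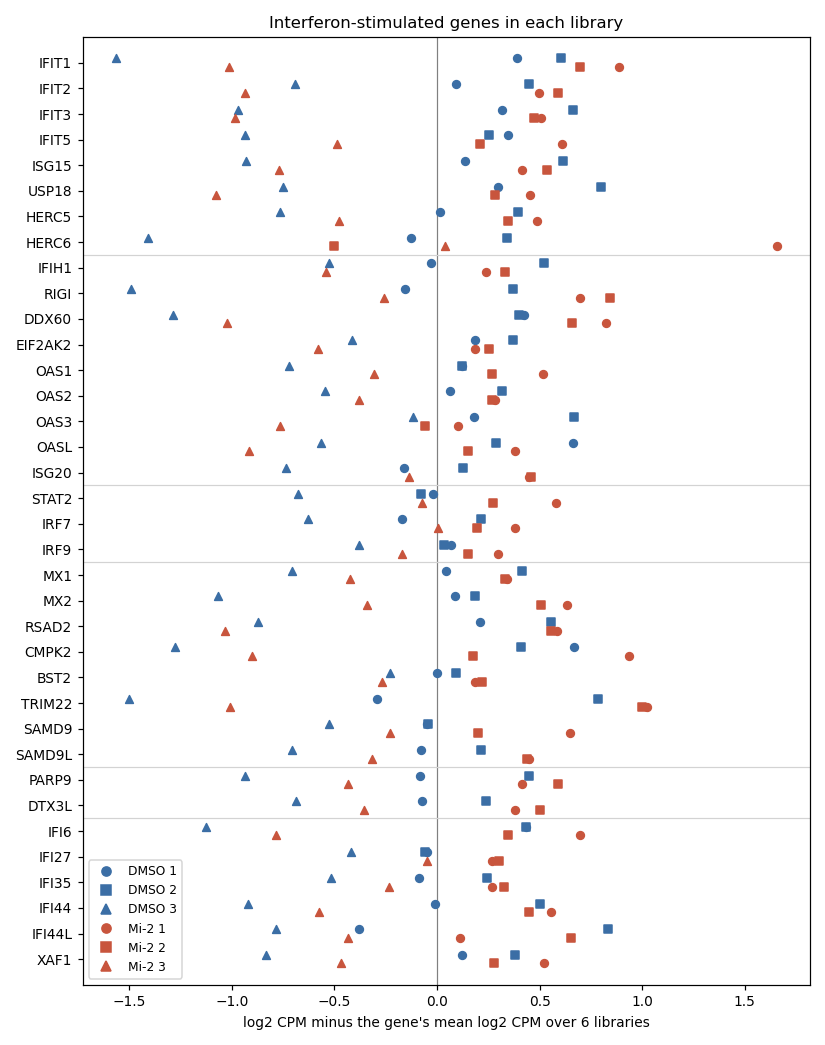
Each row is a gene, and each point its log2 CPM in 1 library minus the gene's mean over the 6 libraries (x axis), with blue for DMSO, red for Mi-2, and circles, squares and triangles for libraries 1, 2 and 3. The triangles lie to the left in both colours in nearly every row, with IFIT1 at 162, 189 and 41.96 CPM in the 3 DMSO libraries.

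The spread was wide by the standard of the whole table. Highest over lowest DMSO library ran from 1.25-fold (BST2) to 4.88-fold (TRIM22) and was over 2-fold in 22 of the 36, with a median of 2.27-fold, where the median over all tested genes was 1.24-fold. Among the Mi-2 libraries it ran from 1.28-fold (IFI27) to 4.47-fold (HERC6), over 2-fold in 17 members. The typical standard deviation within a group, in log2 CPM, was 0.60 for the members and 0.18 for all tested genes (medians). In all 36 members the size of the change with Mi-2 was below the fold between the highest and lowest DMSO library. These are unlike measures, a range over 3 libraries and a difference between groups. The share of all tested genes for which this holds was not computed.

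**Figure D3:**
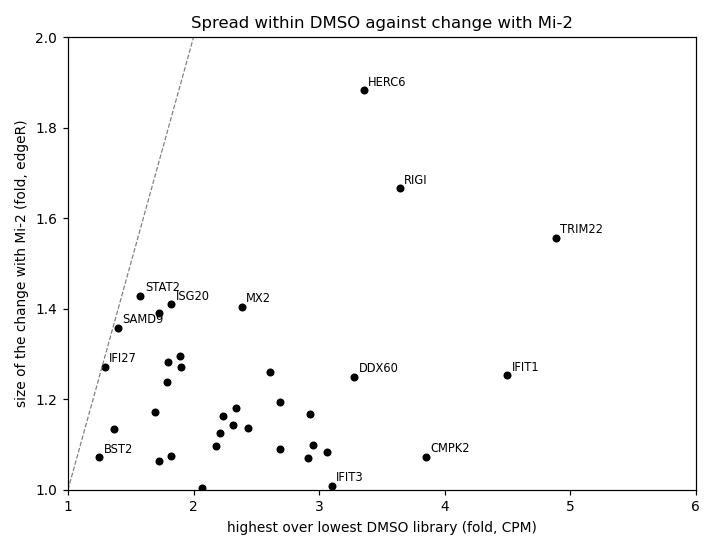
Fold between the highest and the lowest DMSO library in CPM (x axis) against the size of the change with Mi-2, up or down, as a fold from edgeR (y axis), with 1 point per gene and a dashed line where both are equal. All 36 points lie to the right of the line, from BST2 at 1.25-fold to TRIM22 at 4.88-fold. The axes are unlike measures, a range over 3 libraries and a difference between groups.

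The transcription factors that form ISGF3 or amplify its signal leaned upward, and none was called. STAT2, the STAT protein that holds IRF9 in ISGF3 (chromosome 12, 56341597 to 56360155, minus strand, in GENCODE release 29 on GRCh38), had 147, 141 and 93.00 CPM with DMSO (libraries 1, 2 and 3) and 222, 180.1 and 142 CPM with Mi-2 (in the same order). Mi-2 library 3 lay just below DMSO library 1 and the other Mi-2 libraries lay above all 3 DMSO libraries, so the groups overlapped slightly. Its log2 fold change was 0.52 ± 0.19 (SE; 1.43-fold, 95% interval 0.084 to 0.95, edgeR adjusted p = 0.118), and DESeq2 gave an adjusted p of 0.0287. IRF9, the DNA-binding subunit of ISGF3 (chromosome 14, 24161053 to 24166565, plus strand), had 164, 161 and 120.4 CPM with DMSO and 192, 174 and 139 CPM with Mi-2, with the libraries of each group in the same order. Its change of 0.18 ± 0.15 had a 95% interval of -0.14 to 0.51. IRF7, which turns on interferon alpha genes after virus sensing and is itself induced by interferon, had 117, 153 and 85.02 CPM with DMSO and 172, 151 and 132 CPM with Mi-2. DMSO library 2 lay above 2 of the Mi-2 libraries, and the change was 0.36 ± 0.19 (edgeR adjusted p = 0.251).

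IFIT proteins bind viral RNA that lacks the host's cap methylation, and their genes swung widely between libraries. IFIT1, which recognises the cap itself, lies with IFIT2, IFIT3 and IFIT5 in a cluster on chromosome 10 (89283694 to 89421001, plus strand). IFIT1 had 162, 189 and 41.96 CPM with DMSO (libraries 1, 2 and 3) and 229.8, 201 and 61.5 CPM with Mi-2 (in the same order). The low library of each group was far below both of its group mates, while the 2 groups covered much the same range. The change was 0.32 ± 0.54 with a 95% interval of -0.88 to 1.53 (edgeR adjusted p = 0.748). IFIT3, which stabilises IFIT1, had 134, 170.2 and 54.9 CPM with DMSO and 153, 149 and 54.4 CPM with Mi-2, and its low libraries were nearly equal (-0.012 ± 0.42). IFIT2, a partner of both, had 22.9, 29.2 and 13.2 CPM with DMSO and 30.3, 32.2 and 11.2 CPM with Mi-2 (0.17 ± 0.37). For IFIT5, which binds RNA ends with a triphosphate, the values were 29.9, 28.1 and 12.3 CPM with DMSO and 35.9, 27.2 and 16.8 CPM with Mi-2 (0.18 ± 0.33). In all 4 the low library was the one numbered 3 in its group.

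ISG15 is a ubiquitin-like protein that is attached to other proteins, and it had the highest length-corrected level of the 36 genes. It stood at 1223, 1674 and 547 TPM with DMSO (libraries 1, 2 and 3) and 1463, 1490.0 and 602 TPM with Mi-2 (in the same order). In CPM the change was 0.097 ± 0.38, with a 95% interval of -0.76 to 0.96, and the low library was again the third of each group. HERC5, the ligase that attaches ISG15, ran from 53.9 to 120.3 CPM with DMSO and from 65.6 to 128 CPM with Mi-2 (0.22 ± 0.29). USP18 removes ISG15 and also blocks the type I receptor, which makes it a brake on the pathway, and it had 24.1, 33.99 and 11.6 CPM with DMSO and 26.8, 23.8 and 9.27 CPM with Mi-2. Its value was among the 5 below 0 (-0.22 ± 0.41, edgeR adjusted p = 0.776). HERC6, a relative of HERC5, had the largest positive value of all members (0.91 ± 0.64) at the lowest level. It had 0.447, 0.619 and 0.184 CPM with DMSO and 1.54, 0.345 and 0.503 CPM with Mi-2, with Mi-2 library 1 far above the rest, and its interval ran from -0.53 to 2.35. Without that library the change was 0.023.

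Proteins that sense double-stranded RNA gave mixed values. RIGI (also named DDX58), the helicase that detects viral RNA ends and signals through MAVS (chromosome 9, 32455705 to 32526324, minus strand), had 11.5, 16.6 and 4.56 CPM with DMSO (libraries 1, 2 and 3) and 20.9, 23.02 and 10.7 CPM with Mi-2 (in the same order). The lowest Mi-2 library was below 2 of the DMSO libraries, and the other Mi-2 libraries were above all of them. Its change of 0.74 ± 0.40 (1.67-fold) did not pass (edgeR adjusted p = 0.274, lowest 0.146 with any library left out). IFIH1, which encodes the related sensor MDA5 for long RNA, showed 79.3, 116 and 56.2 CPM with DMSO and 95.3, 102 and 55.6 CPM with Mi-2, a change of 0.0049 ± 0.27 with a 95% interval of -0.59 to 0.60. DDX60, a helicase linked to RIGI signalling, was at 17.4, 17.1 and 5.30 CPM with DMSO and 22.96, 20.4 and 6.37 CPM with Mi-2 (0.32 ± 0.49). EIF2AK2, the kinase PKR that halts translation on binding double-stranded RNA, had 247, 281 and 163 CPM with DMSO and 247, 258 and 145 CPM with Mi-2. Its groups covered nearly the same range (-0.088 ± 0.23, 95% interval -0.61 to 0.44).

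The OAS enzymes make a short-lived adenylate messenger when they bind double-stranded RNA, and their values pointed both ways. OAS1, OAS3 and OAS2 lie in a row on chromosome 12 (112906777 to 113011723, plus strand), while OASL, which lacks the enzyme activity, lies apart on the minus strand of the same chromosome. OAS1 had 206, 206 and 115 CPM with DMSO and 272, 229 and 154 CPM with Mi-2 (0.31 ± 0.24). OAS2, the family member with the highest TPM, had 513, 612 and 337 CPM with DMSO and 599, 593 and 378 CPM with Mi-2 (0.10 ± 0.22). For OAS3, which favours long RNA, the values were 35.3, 49.6 and 28.7 CPM with DMSO and 33.4, 29.96 and 18.3 CPM with Mi-2. OAS3 had the largest negative value of the 36 genes (-0.48 ± 0.24, 95% interval -1.01 to 0.055, edgeR adjusted p = 0.233), with 2 of its Mi-2 libraries inside the DMSO range and the third below it. OASL had 67.96, 52.5 and 29.05 CPM with DMSO and 56.03, 47.7 and 22.8 CPM with Mi-2 (-0.24 ± 0.34). Whether OAS1 and OAS3 differed in their response was not tested. ISG20, a nuclease that degrades single-stranded RNA, was the sixth highest in TPM and had 237, 289.9 and 159 CPM with DMSO and 362, 365 and 241 CPM with Mi-2. Mi-2 libraries 1 and 2 were above all DMSO libraries and Mi-2 library 3 was just above DMSO library 1 but below DMSO library 2 (0.50 ± 0.22, edgeR adjusted p = 0.173).

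The members grouped here with the restriction factors, which block steps of viral growth, had positive values in 8 of 8, and none was called. Over all tested genes 50.7% had positive values. With DMSO library 3 left out, MX1, RSAD2 and CMPK2 had values below 0 (-0.12, -0.19 and -0.30). MX1, a dynamin-like GTPase that traps viral nucleocapsids (chromosome 21, 41420304 to 41459214, plus strand), had the highest CPM of the members, with 1060.3, 1373 and 630.1 CPM with DMSO (libraries 1, 2 and 3) and 1303, 1293 and 767 CPM with Mi-2 (in the same order). The groups overlapped throughout (0.13 ± 0.27, 95% interval -0.47 to 0.74). Its neighbour MX2, which acts on nuclear import of HIV-1, had 157, 169 and 70.8 CPM with DMSO and 229.9, 210.4 and 117 CPM with Mi-2, and both higher Mi-2 libraries stood above the DMSO range (0.49 ± 0.32, edgeR adjusted p = 0.357). BST2, or tetherin, holds budding virus on the cell surface and is also a plasma cell surface antigen. It was the third highest in TPM and among the steadiest members, with 424, 453 and 362 CPM with DMSO and 482, 493 and 353 CPM with Mi-2 (0.10 ± 0.14, 95% interval -0.21 to 0.41). SAMD9 and SAMD9L, neighbours on the minus strand of chromosome 7 that restrain translation and growth, were both expressed. SAMD9 had 62.8, 63.04 and 45.2 CPM with DMSO and 102, 74.8 and 55.5 CPM with Mi-2. SAMD9L had 181, 221 and 117 CPM with DMSO and 260.4, 259 and 153 CPM with Mi-2. Their changes were 0.44 ± 0.20 and 0.37 ± 0.24 (edgeR adjusted p = 0.199 and 0.361). TRIM22, a ligase that restricts viruses, ran at a low level, with 4.47, 9.46 and 1.94 CPM with DMSO and 11.2, 10.95 and 2.73 CPM with Mi-2, and had the widest spread among the DMSO libraries (0.64 ± 0.57).

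RSAD2 encodes viperin, which makes a chain-ending nucleotide, and CMPK2 next to it supplies its substrate. RSAD2 ran from 12.1 to 32.4 CPM with DMSO and from 10.8 to 33.2 CPM with Mi-2 (0.12 ± 0.42). CMPK2 was lower, from 0.646 to 2.49 CPM with DMSO and from 0.839 to 2.99 CPM with Mi-2 (0.10 ± 0.53). Both low ends belonged to the third library of each group. The pair of genes overlaps at its divergent starts on chromosome 2, as do PARP9 and DTX3L on chromosome 3. TRIM22, on the plus strand of chromosome 11, lies within the annotated span of TRIM5, a gene on the minus strand that is described further on. The sources used here do not say if strand was used in counting. How reads from those overlaps were assigned to either gene is therefore not known.

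PARP9 and DTX3L form an enzyme complex that modifies ubiquitin and histones, and their genes followed the same order of libraries. PARP9 had 26.9, 38.9 and 14.9 CPM with DMSO (libraries 1, 2 and 3) and 37.97, 42.8 and 21.1 CPM with Mi-2 (in the same order). DTX3L had 34.5, 42.8 and 22.5 CPM with DMSO (libraries 1, 2 and 3) and 47.2, 51.3 and 28.4 CPM with Mi-2 (in the same order). In each group the second library was highest and the third lowest for both genes, with changes of 0.33 ± 0.33 and 0.35 ± 0.25 that did not pass (edgeR adjusted p = 0.564 and 0.419). One and the same match to the response element, TTTCAGTTTC as read on the strand of PARP9, lies at chr3:122564332-122564341, where the annotated spans of the pair overlap in GENCODE release 29. It begins 41 bases before one annotated start of PARP9 and 6 bases before that of DTX3L.

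The IFI genes, named for induction by interferon, held several of the most abundant members. IFI27, a small mitochondrial and nuclear-envelope protein (chromosome 14, 94104836 to 94116698, plus strand), was second in TPM with 815, 716 and 587 TPM with DMSO (libraries 1, 2 and 3) and 888, 839 and 676 TPM with Mi-2 (in the same order). In CPM it had 158, 158 and 123 CPM with DMSO and 197, 202 and 158 CPM with Mi-2, so that only Mi-2 library 3 was below a DMSO library, and by a narrow margin. The change of 0.35 ± 0.13 (1.27-fold, 95% interval 0.060 to 0.63) had the lowest adjusted p of the 36 genes, 0.114 by edgeR, and between 0.0545 and 0.328 with a library left out. IFI6, a mitochondrial protein that counters cell death, had 286, 286 and 96.8 CPM with DMSO and 343, 269 and 123 CPM with Mi-2 and showed a gap of more than 2-fold below its group mates in both low libraries (0.14 ± 0.42). IFI35, an adaptor that binds NMI, had 151, 191 and 112 CPM with DMSO and 193, 202 and 137 CPM with Mi-2 (0.23 ± 0.19). IFI44 and IFI44L, neighbours on the plus strand of chromosome 1, had changes of 0.25 ± 0.35 and 0.11 ± 0.38, with IFI44L at 35.7, 82.6 and 26.97 CPM with DMSO and 50.2, 72.95 and 34.3 CPM with Mi-2. In IFI44L, as also in IFIH1 and OAS3, DMSO library 1 was closer to DMSO library 3 than to DMSO library 2. XAF1, a protein that favours apoptosis by binding XIAP, ran from 73.1 to 169 CPM with DMSO and from 94.1 to 187 CPM with Mi-2 (0.19 ± 0.30).

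The upstream pathway was described from a list of 62 ligands, receptors, kinases, factors, sensors and inhibitors. The 22 interferon genes were nearly silent, none passed the filter, and their counts summed to 6, 44 and 10 in DMSO libraries 1, 2 and 3 and to 8, 21 and 5 in Mi-2 libraries 1, 2 and 3. Most of these belonged to the lambda interferons IFNL1 to IFNL4 (4, 34 and 9 counts with DMSO and 7, 15 and 4 with Mi-2), which include near-identical copies. IFNB1 had 6 counts in DMSO library 2, 2 in Mi-2 library 2 and 0 elsewhere, and IFNG had 0 in all 6. At these counts no comparison is possible.

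Of the 38 pathway genes that were tested, 4 rose and 2 fell, a share not far from the 11.0% of all tested genes that were called. The receptor genes IFNAR1 and IFNAR2 had changes of 0.18 ± 0.11 and 0.0045 ± 0.10 (95% intervals -0.061 to 0.41 and -0.23 to 0.23). Among the kinases TYK2 (0.048 ± 0.09) and JAK1 (0.31 ± 0.12, edgeR adjusted p = 0.128) were not called. JAK2, the kinase of the interferon-gamma receptor, rose from 20.04, 23.5 and 22.3 to 30.99, 32.7 and 27.8 CPM (0.47 ± 0.11, edgeR adjusted p = 0.0243). Among the 6 fits that left out a library, JAK2 kept its call in just the one that omitted Mi-2 library 3 (in the others, adjusted p up to 0.0879), and limma on log2(TPM + 1) did not call it (adjusted p = 0.353). IRF1, a factor induced by interferon-gamma and NF-κB, fell from 86.6, 90.6 and 88.4 to 71.2, 65.9 and 72.6 CPM (-0.34 ± 0.08, edgeR adjusted p = 0.0241). Its DMSO libraries hardly differed in CPM. In TPM IRF1 had 96.3, 101.8 and 57.9 with DMSO and 74.1, 67.8 and 47.5 with Mi-2. By that measure DMSO library 3 lay below Mi-2 libraries 1 and 2. Its call also held only without Mi-2 library 3 (otherwise up to 0.0886), and limma on log2(TPM + 1) gave an adjusted p of 0.375.

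Of 13 tested genes for sensors of nucleic acids and their adaptors and kinases, 3 rose, 1 fell and the others were not called. Over all tested genes 11.0% were called. STING1, the adaptor that turns DNA sensing into interferon induction, rose from 25.7, 24.9 and 27.6 CPM with DMSO to 49.2, 46.9 and 49.3 CPM with Mi-2 (0.90 ± 0.09, 1.86-fold, edgeR adjusted p = 0.00196). The groups were far apart, and the call held with any library left out (adjusted p up to 0.0144). CGAS, the enzyme that makes STING1's ligand, fell from 50.4, 63.6 and 51.8 to 33.98, 42.7 and 37.2 CPM (-0.54 ± 0.12, edgeR adjusted p = 0.0215). Its call was lost on leaving out DMSO library 2 or either of Mi-2 libraries 1 and 3 (up to 0.0892). TLR7 and TLR9, endosomal receptors for RNA and DNA in B-lineage and plasmacytoid dendritic cells, rose from 35.05, 34.4 and 30.8 to 46.2, 47.8 and 41.01 CPM and from 12.7, 13.9 and 10.3 to 17.2, 16.6 and 17.99 CPM (0.43 ± 0.10 and 0.49 ± 0.14, edgeR adjusted p = 0.0231 and 0.048). TLR7 kept its call when DMSO library 1 or Mi-2 library 3 was left out and lost it in the other 4 such fits (up to 0.0944), and TLR9 lost its call in all 6 (up to 0.147). CGAS, TLR7 and TLR9 were not called by limma on log2(TPM + 1) (adjusted p = 0.108, 0.114 and 0.157). In 10 of the 38 pathway genes (26.3%) the third library was lowest in both groups, against 15.2% of all tested genes.

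**Figure D4:**
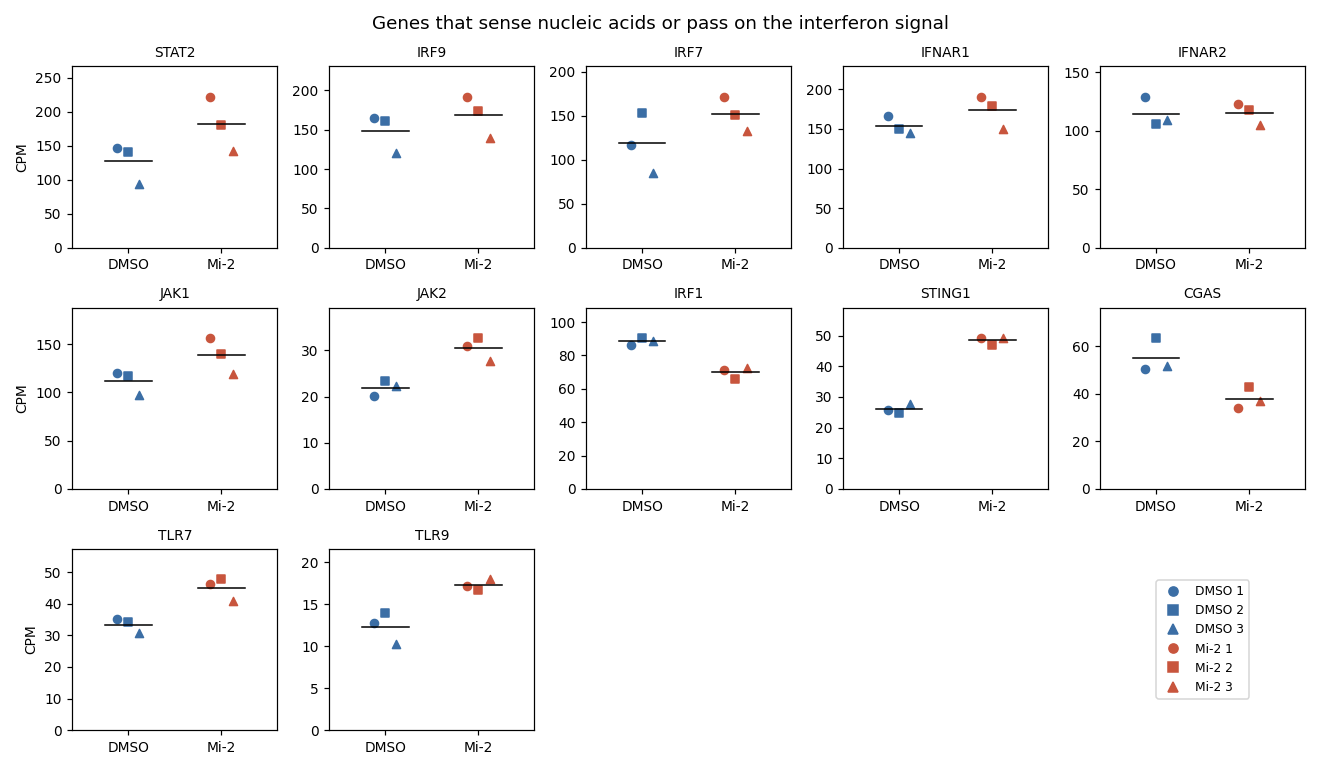
CPM (y axis, from 0) of 12 genes in the DMSO (blue) and Mi-2 (red) libraries, with circles, squares and triangles for libraries 1, 2 and 3 and a line at each group's mean. STAT2, IRF9 and IRF7 have their triangle lowest in each group, while STING1 is separate at 26.1 and 48.5 CPM.

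A second list of 54 interferon-stimulated genes, outside the 36, gave a similar picture with smaller swings. Of 51 tested, 1 rose and 0 fell, where 11.0% of all tested genes were called. At an unadjusted p under 0.05 by edgeR, 7 were higher and 2 lower, against 27.0% of all tested genes. DESeq2 called 2 higher and 1 lower. The CPM ranges of the 2 groups were separate in 9 of the 51 (17.6%), against 0 of the 36 members and 32.3% of all tested genes. The median change was 0.16, with 37 values above 0. The gene that rose was TRIM5, a factor that binds retroviral capsids, from 10.9, 12.1 and 9.73 to 18.2, 18.5 and 15.8 CPM (0.68 ± 0.13, edgeR adjusted p = 0.013). Its call was lost when the fit omitted DMSO library 3 (0.0545) or Mi-2 library 1 (0.0551), and limma on log2(TPM + 1) did not call it (adjusted p = 0.0825). In 36 of the 51 the third library was lowest in both groups, against 35 of 36 in the first list, and the median of highest over lowest DMSO library was 1.52-fold. ADAR, the RNA editing enzyme, had 1918, 2192 and 1596 CPM with DMSO and 2108, 2050.2 and 1721 CPM with Mi-2 (0.043 ± 0.13, 95% interval -0.25 to 0.34), and IFITM1, which blocks viral entry, had 293, 413 and 239.6 CPM with DMSO and 329, 402 and 278 CPM with Mi-2 (0.094 ± 0.19). CXCL10 and CXCL11, interferon-induced chemokines, were below 2 CPM in every library (-0.83 ± 0.88 and -1.52 ± 0.56, edgeR adjusted p = 0.595 and 0.112).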

How the data were processed

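Paired-end RNA-seq of total RNA from 6 H929 libraries was analysed. Tools named in the submitters' processing notes are RSEM 1.3.3, StringTie 2.1.0, HISAT2 2.1.0 and fastp 0.19.5, with the build GRCh38.p13 and no roles. The sources used here give neither annotation release nor strand. The authors deposited estimated counts per gene, not scaled between libraries, and TPM values, and both were used as deposited. Estimated counts were rounded, filtered with filterByExpr (minimum count 10, minimum total 15; 16082 of 62703 genes) and TMM-scaled. Mi-2 and DMSO libraries, 3 of each, were compared with edgeR 4.0.16 under R 4.3.3 (quasi-likelihood test), with p-values adjusted by Benjamini-Hochberg over all tested genes. Standard errors and 95% intervals come from the F statistic. Chi-square per degree of freedom between libraries of a group was 16.6 to 23.4, so none was a duplicate and all libraries were kept.

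The members, lists and tests were chosen with earlier results of these data known. Any member could be named, with all 6 values for the 10 highest in TPM, the 4 largest changes each way and families described together, and of the other lists those called and the receptor and kinase genes; 1 result is not reported here. Symbols came from a table naming 62625 of the IDs. The fit was tested on simulated data. Alternatives were other scalings (RLE, upper quartile), DESeq2 1.42.0, limma 3.58.1 (voom, or with a trend on log2 TPM plus 1 or 0.1, mean TPM of at least 1), other filters, a library-number block and leaving out libraries. Leaving out both libraries numbered 3 was added after seeing the data.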

Additional observations from a re-analysis of the deposited data

How the results depend on the processing

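The median change of the members stayed above 0 under every scaling, tool, filter and pseudocount tried (0.19 to 0.23) and ran from -0.058 to 0.46 with a library left out. No member was called with any library left out, and with libraries numbered 3 left out of both groups the counts were 0, with 280 genes called higher and 434 lower overall and 1 pathway gene higher. With no low-count filter, edgeR called 12 members higher and 1 lower, 1221 of all genes higher and 1541 lower, 8 pathway genes higher, and 3 of the further interferon-stimulated genes higher and 1 lower. DESeq2 called 1 member higher, and 2 of the further genes higher and 1 lower. Limma called 229 genes higher and 381 lower on log2(TPM + 1), 249 and 398 on log2(TPM + 0.1), in each case with 1 pathway gene higher and 0 lower and 0 further genes higher. The causes were not tested. With a library left out, the counts ran from 216 to 715 genes higher and 302 to 866 lower, 1 to 3 pathway genes higher and 0 to 1 lower, and 0 to 1 further genes higher and 0 to 1 lower.

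The library numbers in the titles are not stated to mark pairs. Deviations from the group means of same-numbered libraries correlated over all tested genes at 0.41, 0.059 and 0.26 (numbers 1, 2 and 3), and not every library correlated best with its own number, since Mi-2 library 2 did so with DMSO library 3 (0.079). With the number as a replicate block edgeR called 1791 of all 16082 tested genes higher and 2035 lower. Of the members it called 13 higher (IFIT1, RIGI, OAS1, ISG20, STAT2, IRF7, MX2, SAMD9, SAMD9L, PARP9, DTX3L, IFI27 and IFI35) and 2 lower (OAS3 and OASL). It also called 9 pathway genes higher, and 10 further genes higher and 2 lower. Under the block, the median change of the members was 0.23.

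Some members with values near 0 changed sign. IFIT3 was 0.012 with upper-quartile scaling, IFIH1 was -0.0024 without a filter on low counts, and EIF2AK2 was 0.014 on log2(TPM + 1) and 0.015 on log2(TPM + 0.1), none of them called. With a library left out the log2 fold changes ran over 0 for 19 members, none of them called: CMPK2 -0.41 to 0.46, DDX60 -0.065 to 0.71, EIF2AK2 -0.29 to 0.13, HERC5 -0.048 to 0.50, IFI44 -0.051 to 0.62, IFI44L -0.20 to 0.74, IFI6 -0.23 to 0.46, IFIH1 -0.22 to 0.31, IFIT1 -0.10 to 0.72, IFIT2 -0.094 to 0.52, IFIT3 -0.36 to 0.33, IFIT5 -0.13 to 0.43, ISG15 -0.23 to 0.47, MX1 -0.12 to 0.41, OAS2 -0.11 to 0.30, OASL -0.52 to 0.059, RSAD2 -0.19 to 0.49, USP18 -0.55 to 0.16 and XAF1 -0.094 to 0.45. HERC6 and CMPK2 had few counts, with a mean of under 1 TPM each, and the interferon ligands had too few counts to be tested.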

Other observations

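The genes lowest in the third library of both groups were searched for over the whole table, after the members' pattern had been seen. Of 11292 genes with a mean log2 CPM of at least 2, 9 were lower by 2-fold or more in DMSO library 3 and in Mi-2 library 3 than in every other library of the same group, and 8 of the 9 were members (IFIT1, DDX60, IFIT3, TRIM22, IFI6, RSAD2, ISG15 and USP18). The other was DDX60L, a close relative and neighbour of DDX60, at 5.87, 5.79 and 0.830 CPM with DMSO and 8.67, 6.29 and 2.01 CPM with Mi-2. Among the 20 genes with the largest gap, 16 were members. LGALS9, the gene of a galectin, was one of the rest, with 7.71, 10.3 and 3.32 CPM with DMSO and 8.48, 8.80 and 4.44 CPM with Mi-2. By the same measure 14 genes were lower by 2-fold or more in the first library of both groups and 0 in the second, and none of these was a member. These counts describe the 6 libraries and carry no test.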
